A study of Homo sapiens with 4 samples.

Results

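The miR-99, miR-100 and miR-125 miRNAs come from 3 genomic clusters in which a miR-99 or miR-100 hairpin and a miR-125 hairpin lie with a let-7 hairpin. Of the 2656 mature miRNAs in the deposited table, 10 belong to this group: hsa-miR-99a-5p, hsa-miR-99a-3p, hsa-miR-100-5p, hsa-miR-99b-5p, hsa-miR-99b-3p, hsa-miR-125a-5p, hsa-miR-125a-3p, hsa-miR-125b-5p, hsa-miR-125b-1-3p and hsa-miR-125b-2-3p, written below without the species prefix. They were chosen by name and cluster with their levels and their differences between the groups in these libraries already known. Their differences between CAG and PGK cells are therefore given as a description, without the p-value of any single miRNA. Counts of those called by a test are a description too, and nothing is read from them.

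The libraries were small RNA libraries of HEK293T, a human embryonic kidney line that carries the SV40 large T antigen. Every line had a landing pad, an engineered locus into which a transgene can be inserted. In 2 libraries (CAG) the pad held the CAG promoter, a strong hybrid of viral enhancer and actin gene elements, and in 2 (PGK) it held the promoter of the phosphoglycerate kinase gene; the series asked which miRNAs differ between the lines. The lines were monoclonal, so promoter and clone cannot be told apart, and since nothing says that replicates were separate cultures, p-values measure only the spread between these samples.

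Depth was 13780279 and 2845945 miRNA reads in CAG replicates 1 and 2, and 7927615 and 7331437 in PGK replicates 1 and 2. A count of 0 allows up to 0.233 to 0.972 CPM, depending on the library (3 reads; CPM are counts divided by the TMM-adjusted library total and put on a common scale). Such limits, and the intervals below, cover counting error only. Of the 4 kidney epithelial miRNAs checked, 4 had reads in every library, with summed levels of 8110 and 6235 CPM in CAG and 11289 and 11580 CPM in PGK cells. miR-204-5p of that list ran against the sum, with 22.1 and 20.1 CPM in CAG and 7.88 and 4.74 CPM in PGK cells. The blood list summed to at most 0.976 CPM, with miR-223-3p at 0 in every library. The highest observed level was 2.65 CPM for miR-122-5p of liver and 0.375 CPM for miR-124-3p of neurons. Summed levels of the mesenchymal and endothelial list were 1234 and 1093 CPM in CAG and 1738 and 1541 CPM in PGK cells, those of the neural list 2060 and 1767 CPM against 4089 and 3891 CPM, and those of the muscle list 16.8 and 15.6 CPM against 106 and 96.1 CPM. The neural sum was nearly all miR-9-5p and the muscle sum nearly all miR-1-3p, so the group difference in each sum is that of a single miRNA. The mesenchymal and endothelial sum was nearly all miR-126-3p. In that list miR-143-3p had 14.4 and 9.72 CPM in CAG and 4.38 and 5.86 CPM in PGK cells. The part of these lists in the results that follow was not tested.

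A miRNA is cut from a hairpin, and the strand of its 5′ arm (5p) or its 3′ arm (3p) is loaded into an Argonaute protein, where the seed, bases 2 to 8 counted from the 5′ end, pairs with target transcripts. miR-125b is the vertebrate relative of Caenorhabditis elegans lin-4, the founding miRNA, and let-7 is the other classical timing miRNA of that worm, so these clusters hold relatives of both together. miR-99 and miR-100 are relatives of miR-10 and are known for repressing MTOR, while miR-125 is known for repressing LIN28, itself a block to let-7 processing. miR-125b and miR-100 are common in mesenchymal and other differentiated cells.

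The sequences decide which miRNAs share targets and which entries are hard to tell apart in reads. All 10 were found in the RefSeq table (GRCh38.p14), and the seed is in capitals. The 5p strands of miR-99a, miR-100 and miR-99b share the seed ACCCGUA.
miR-99a-5p: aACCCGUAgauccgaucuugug
miR-100-5p: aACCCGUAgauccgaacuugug
miR-99b-5p: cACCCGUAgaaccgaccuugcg
Counted from the 5′ end, miR-100-5p differs from miR-99a-5p by the single substitution U16A. miR-99b-5p differs from miR-99a-5p at 4 of 22 bases (A1C, U11A, U16C and U21C). The 5p strands of miR-125a and miR-125b share the seed CCCUGAG and their first 13 bases.
miR-125a-5p: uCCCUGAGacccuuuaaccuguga
miR-125b-5p: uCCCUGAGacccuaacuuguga
The 3p strands of miR-99a and miR-99b also share a seed, AAGCUCG, and differ from each other at 4 bases outside it, whereas the 3p strands of the miR-125 hairpins have a different seed each.
miR-99a-3p: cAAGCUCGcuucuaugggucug
miR-99b-3p: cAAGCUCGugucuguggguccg
miR-125a-3p: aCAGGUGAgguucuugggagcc
miR-125b-1-3p: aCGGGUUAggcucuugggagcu
miR-125b-2-3p: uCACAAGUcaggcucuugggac

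In GENCODE 29 (GRCh38) the chromosome 21 cluster lies on the plus strand in introns of MIR99AHG, a long non-coding RNA gene, with MIR99A at chr21:16539089-16539169, MIRLET7C 658 bases further on and MIR125B2 at chr21:16590237-16590325. The chromosome 11 cluster lies on the minus strand in introns of MIR100HG, another non-coding host, with MIR100 at chr11:122152229-122152308, MIRLET7A2, and MIR125B1 at chr11:122099757-122099844. The chromosome 19 cluster is compact: MIR99B (chr19:51692612-51692681), MIRLET7E and MIR125A (chr19:51693254-51693339) span 728 bases of the plus strand in an intron of SPACA6, a gene known for sperm-egg fusion. Mature miR-125b-5p is identical from MIR125B1 and MIR125B2, so its reads cannot be assigned to chromosome 11 or 21, while each miR-125b 3p strand belongs to a single hairpin. The tables hold no coordinates; these positions were looked up by name.

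The group as a whole took 1.97% and 2.20% of miRNA reads in CAG replicates 1 and 2 and 1.46% and 1.5% in PGK replicates 1 and 2. The Wilson 95% intervals of these shares ran from 1.97% to 1.98% and from 2.18% to 2.22% in the CAG libraries, and from 1.46% to 1.47% and from 1.49% to 1.51% in the PGK libraries. In every library miR-99b-5p and miR-99a-5p supplied most of these reads, between 85% and 86.6% of them.

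**Figure D1:**
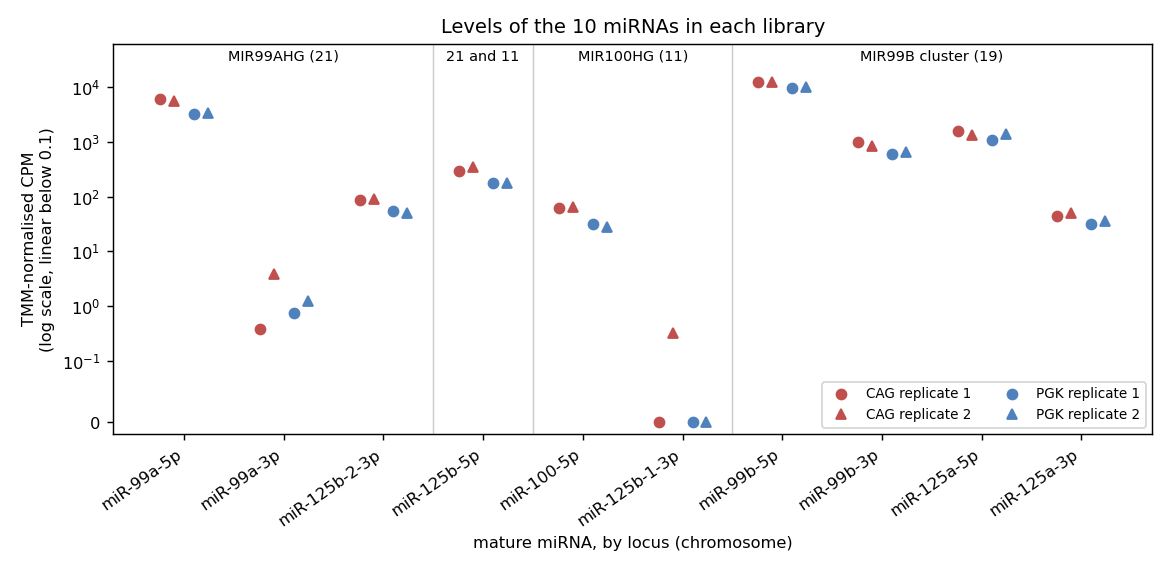
TMM-normalised CPM (log scale, linear below 0.1) of each of the 10 miRNAs in each library, grouped by locus; each point is a library. Levels run from 0 for miR-125b-1-3p to 12042 CPM for miR-99b-5p, and the CAG points of miR-99a-5p, at 5577 and 6018 CPM, lie above the PGK points, at 3189 and 3313 CPM.

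On chromosome 19, miR-99b-5p was the most abundant of the 10. It stood at 12042 and 12004 CPM in CAG replicates 1 and 2, against 9392 and 9727 CPM in PGK replicates 1 and 2. Both CAG libraries were above both PGK libraries, and the miRNA held ranks 20 to 23 among all miRNAs of a library. miR-99b-3p, its passenger strand, had 986 and 834 CPM in CAG and 603 and 633 CPM in PGK cells, again without overlap. miR-125a-5p had 1580 and 1328 CPM in CAG and 1049 and 1376 CPM in PGK cells, and here the groups overlapped, since PGK replicate 2 was above CAG replicate 2. miR-125a-3p had 43.7 and 50.2 CPM in CAG and 31.5 and 36.5 CPM in PGK cells. The log2 fold changes (CAG minus PGK) were 0.33 for miR-99b-5p (SE 0.15), 0.56 for miR-99b-3p (SE 0.18), 0.26 for miR-125a-5p (SE 0.19) and 0.45 for miR-125a-3p (SE 0.22). The value of miR-125a-5p depended on single libraries, at 0.06 without PGK replicate 1, 0.46 without PGK replicate 2 and 0.14 without CAG replicate 1.

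On chromosome 21, miR-99a-5p had 6018 and 5577 CPM in CAG replicates 1 and 2, against 3189 and 3313 CPM in PGK replicates 1 and 2. The CAG libraries were both above the PGK libraries, and its rank among all miRNAs was 28 and 29 in CAG and 47 and 45 in PGK cells. miR-125b-2-3p, the strand that marks the MIR125B2 hairpin, had 86.7 and 88.8 CPM in CAG and 54.4 and 50.8 CPM in PGK cells. Its replicates lay close together and its groups apart. The log2 fold changes (CAG minus PGK) were 0.83 for miR-99a-5p (SE 0.16) and 0.74 for miR-125b-2-3p (SE 0.19). miR-99a-3p was nearly absent, with 5 and 12 reads in CAG replicates 1 and 2 and 6 and 9 reads in PGK replicates 1 and 2. It did not pass the low-count filter, and its levels of 0.388 and 3.89 CPM in CAG cells lay on both sides of those in PGK cells, 0.751 and 1.25 CPM.

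miR-125b-5p, which chromosomes 11 and 21 can both give, had 294 and 350 CPM in CAG and 176 and 175 CPM in PGK cells, a log2 fold change of 0.87 (SE 0.19). The 3p strands of the chromosome 11 hairpins were close to empty. miR-125b-1-3p had 0 and 1 reads in CAG replicates 1 and 2 and 0 in both PGK libraries, whereas miR-125b-2-3p had 2189 reads over the 4 libraries. miR-100-3p and let-7a-2-3p, the 3p strands of the other chromosome 11 hairpins, were listed at 0 reads in all 4 libraries.

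miR-100-5p, the 5p strand of MIR100, had reads in every library, with 61.0 and 63.5 CPM in CAG and 32.2 and 27.9 CPM in PGK cells, a log2 fold change of 1.05 (SE 0.21). Its counts are best read beside those of miR-99a-5p, from which it differs by 1 base. Per 1000 reads of miR-99a-5p there were 10.1 reads of miR-100-5p in CAG replicate 1 (95% exact interval 9.44 to 10.9) and 11.4 in CAG replicate 2 (9.84 to 13.1), against 10.1 in PGK replicate 1 (8.88 to 11.4) and 8.42 in PGK replicate 2 (7.29 to 9.68). Both CAG values were above both PGK values, but CAG replicate 1 and PGK replicate 1 differed by less than their intervals. Among miRNAs with a RefSeq sequence, 52 pairs of equal length differ by 1 base, and in 9 of them the more abundant miRNA had at least 10000 reads in every library. miR-100-5p in miR-99a-5p had the lowest ratio of these 9 pairs, 9.997 per 1000 over all libraries. The next was miR-106a-5p in miR-17-5p at 22.6, and let-7c-5p in let-7a-5p stood at 79.7. The sources used here do not state how the authors assigned reads that match 2 entries, or match with an error. Whether misread miR-99a-5p contributes to the miR-100-5p count was not tested, so the level and the fold change of miR-100-5p are uncertain.

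**Figure D2:**
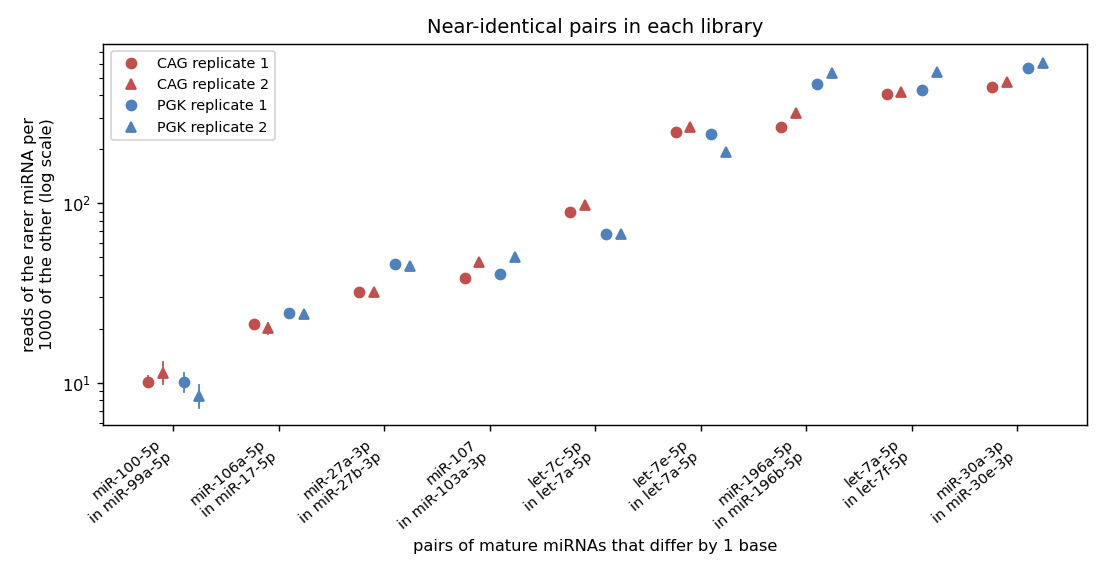
Reads of the rarer miRNA per 1000 reads of the more abundant miRNA (log scale) in the 9 pairs that differ by 1 base; each point is a library and bars are 95% exact intervals for counting error. miR-100-5p in miR-99a-5p lies lowest, at 8.42 to 11.4 per 1000.

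In order of mean level over the libraries, miR-99b-5p (10791 CPM) was followed by miR-99a-5p (4524 CPM), miR-125a-5p (1333 CPM), miR-99b-3p (764 CPM) and miR-125b-5p (249 CPM). Next came miR-125b-2-3p (70.2 CPM), miR-100-5p (46.2 CPM) and miR-125a-3p (40.5 CPM), then miR-99a-3p (1.57 CPM) and miR-125b-1-3p (0.0810 CPM). Neighbours in this order did not overlap in their range over the libraries, with the exceptions of miR-125b-2-3p with miR-100-5p and of miR-100-5p with miR-125a-3p. All mature strands are 22 or 24 bases long, so length hardly enters these levels, but the ligation and PCR steps favour some sequences and make levels of different miRNAs less comparable than levels of the same miRNA between libraries.

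In the edgeR fit over all miRNAs, 8 of the 10 passed the low-count filter and 4 of these were called higher in CAG cells: miR-99a-5p, miR-125b-5p, miR-100-5p and miR-125b-2-3p. Over all 773 tested miRNAs, 14.2% were called in either direction and 8.15% were called higher, at a Benjamini-Hochberg threshold of 0.05 in edgeR's quasi-likelihood test. The calls and fold changes were known when the miRNAs were chosen, so nothing is read from any of the shares in this paragraph. DESeq2, which called 7.45% of the miRNAs it tested higher, and limma-voom, at 8.15%, also called 4 of the 8. All 8 had a log2 fold change above 0, as 49.8% of all tested miRNAs did, and in 7 of the 8 both CAG libraries were above both PGK libraries, as in 29.8% of all tested miRNAs. The log2 fold changes of the 8 ran from 0.26 to 1.05 with a median of 0.65, and the median over all tested miRNAs was -0.0042. The calls were lost when either PGK library was left out. Each such fit has 1 library in a group, which is assumed to vary like the libraries of the other group. Without PGK replicate 1 the edgeR fit called 0 of 9, when 1.44% of all tested miRNAs were called higher, and 4 of the 9 had an unadjusted p under 0.05, as 19.1% of all did. Without PGK replicate 2 it also called 0 of 9, when 1.18% of all were called higher, and 4 had an unadjusted p under 0.05, as 17.8% of all did. miR-99a-3p entered the filter in those fits. The fold changes of the 4 miRNAs moved little: without PGK replicate 1 and without PGK replicate 2 they were 0.79 and 0.85 for miR-99a-5p, 0.85 and 0.87 for miR-125b-5p, 1.14 and 0.94 for miR-100-5p, and 0.77 and 0.68 for miR-125b-2-3p (log2). Without CAG replicate 1, when 7.32% of all tested miRNAs were called higher, miR-125b-2-3p was not called. Without CAG replicate 2, when 10.1% were, miR-99b-3p of chromosome 19 was called too, at a log2 fold change of 0.68. In bulk RNA, a change in all cells and a change in the share of cells cannot be told apart.

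**Figure D3:**
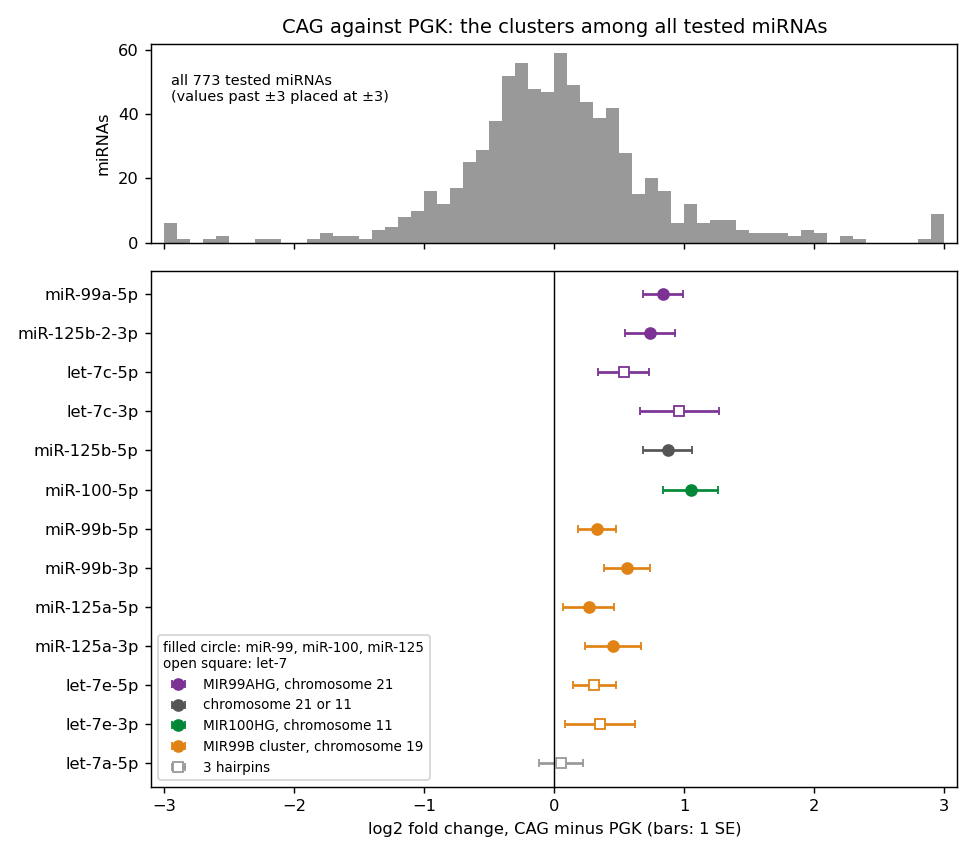
Top, log2 fold changes (CAG minus PGK) of all 773 tested miRNAs; bottom, those of the 8 tested miRNAs of the group (filled circles) and of let-7 miRNAs (open squares), with bars of 1 SE and colours by locus. miR-99a-5p, miR-125b-2-3p, miR-125b-5p and miR-100-5p lie between 0.74 and 1.05, the chromosome 19 miRNAs between 0.26 and 0.56.

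By locus, the summed level of the chromosome 21 strands was 6105 and 5669 CPM in CAG and 3244 and 3365 CPM in PGK cells, 1.78-fold. The chromosome 19 strands summed to 14651 and 14216 CPM in CAG and 11076 and 11773 CPM in PGK cells, 1.26-fold. On chromosome 11 the sum was nearly all miR-100-5p, at 61.0 and 63.9 CPM in CAG and 32.2 and 27.9 CPM in PGK cells, 2.08-fold. Whether misread miR-99a-5p contributes to it was not tested, so this sum and its fold change are as uncertain as those of miR-100-5p. miR-125b-5p is in none of these sums. The chromosome 19 cluster was the largest of these sums in every library.

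Ratios within a library need no scaling between libraries. There were 2.0 and 2.15 reads of miR-99b-5p for each read of miR-99a-5p in CAG replicates 1 and 2, against 2.95 and 2.94 in PGK replicates 1 and 2. The groups did not overlap. On the log2 scale they differed by -0.50, with an SD between replicates of 0.075 (CAG) and 0.0032 (PGK). Each SD rests on 2 libraries, and the miRNAs were chosen with their differences known, so this is a description only. For the miR-125 pair there were 5.38 and 3.79 reads of miR-125a-5p for each read of miR-125b-5p in CAG cells, against 5.98 and 7.84 in PGK cells. These groups also did not overlap, but the replicates were spread widely (SD 0.36 in CAG and 0.28 in PGK cells, against a difference of -0.60). Without CAG replicate 2 that difference was -0.35.

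**Figure D4:**
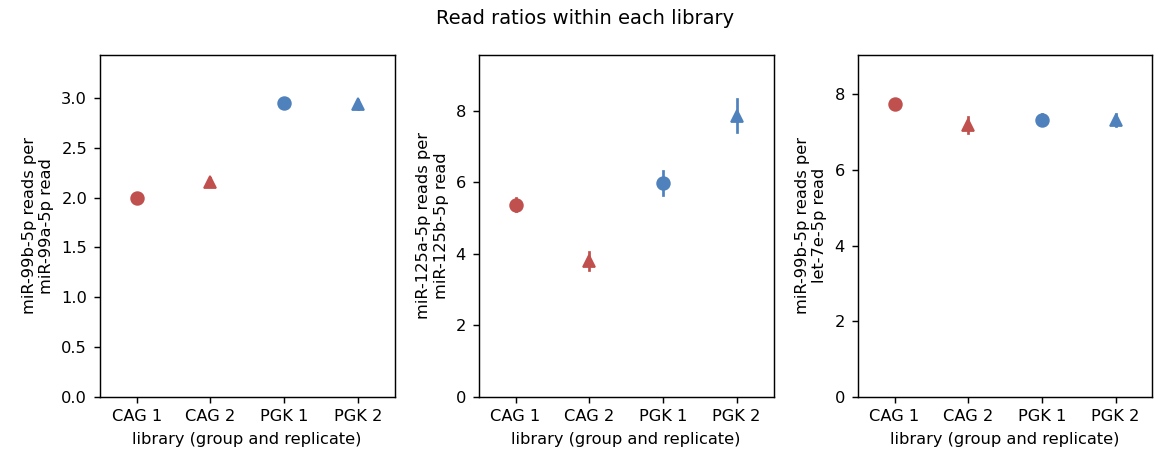
Read ratios within each library, with 95% exact intervals for counting error. miR-99b-5p per miR-99a-5p stood at 2.0 and 2.15 in CAG and 2.95 and 2.94 in PGK libraries, miR-125a-5p per miR-125b-5p at 5.38 and 3.79 in CAG and 5.98 and 7.84 in PGK libraries, and miR-99b-5p per let-7e-5p at 7.17 to 7.75 in all 4.

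Seen by seed, the pool of ACCCGUA miRNAs had 18121 and 17645 CPM in CAG and 12613 and 13067 CPM in PGK cells in the deposited table of seed families, 1.39-fold. It ranked 13 and 14 among the 2094 families in CAG replicates 1 and 2 and 15 in both PGK libraries. miR-99a-5p made up 33.2% of this pool in CAG replicate 1 (Wilson 95% interval 33.0% to 33.4%) and 31.6% in CAG replicate 2 (31.2% to 32.0%), against 25.3% in PGK replicate 1 (25.0% to 25.5%) and 25.4% in PGK replicate 2 (25.1% to 25.6%). miR-100-5p made up at most 0.360% of the pool in any library.

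The pool of CCCUGAG miRNAs was smaller, with 1874 and 1678 CPM in CAG and 1225 and 1551 CPM in PGK cells, 1.29-fold. miR-125b-5p supplied 15.7% of it in CAG replicate 1 (Wilson 95% interval 15.2% to 16.1%) and 20.9% in CAG replicate 2 (19.8% to 22.0%), against 14.3% in PGK replicate 1 (13.7% to 15.0%) and 11.3% in PGK replicate 2 (10.7% to 11.9%). miR-4319, which has the same seed, was listed at 0 reads in all 4 libraries, and miR-125a-5p made up the rest. Both pools therefore held more of the chromosome 21 or 11 strand in CAG than in PGK libraries, with a wider spread between replicates in the miR-125 pool. Each family count matched the sum of its miRNAs within 1 read, so the families are no separate measurement.

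The arms of the hairpins were used very unequally, in all libraries in the same direction. MIR99B gave 12.2 and 14.4 reads of its 5p strand for each 3p read in CAG replicates 1 and 2 and 15.6 and 15.4 in PGK replicates 1 and 2. MIR125A gave 36.1 and 26.4 in CAG and 33.3 and 37.7 in PGK cells, with overlapping groups. Of the hairpins with 3p reads in every library, MIR99A was the most one-sided, with 15499 and 1434 reads of 5p for each 3p read in CAG and 4247 and 2640 in PGK cells, but its 3p counts were so few that the exact interval of CAG replicate 1 ran from 6641 to 47734. Between miR-125b-5p and miR-125b-2-3p the ratio was only 3.39 and 3.94 in CAG and 3.23 and 3.46 in PGK cells. It is an upper limit for the MIR125B2 hairpin, because the 5p reads can come from MIR125B1 as well. Despite their shared 3p seed, miR-99b-3p outnumbered miR-99a-3p by 24629 to 32 reads over the libraries.

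**Figure D5:**
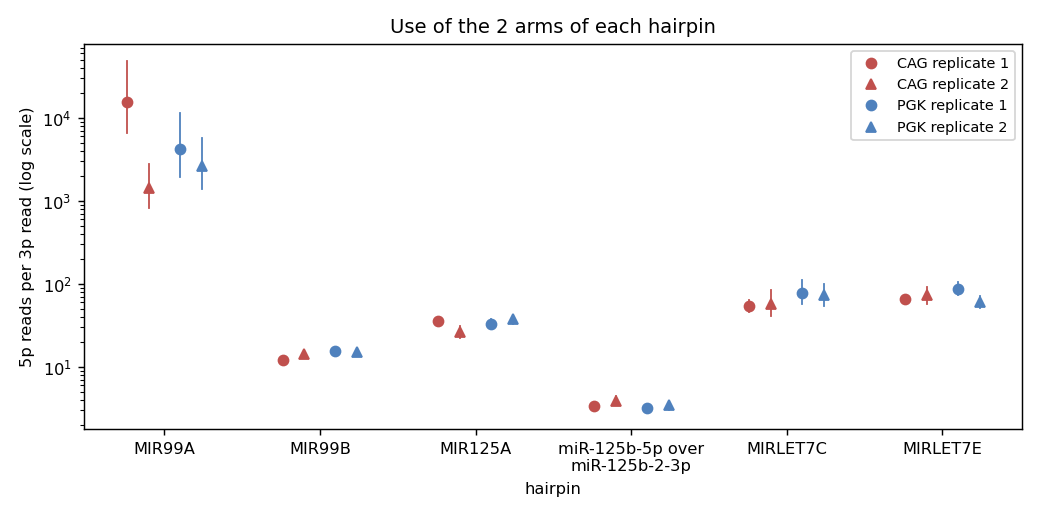
Reads of the 5p strand for each read of the 3p strand (log scale) in 6 pairs of strands, by library, with 95% exact intervals for counting error. MIR99A lies above 1000 in every library, MIR99B between 12.2 and 15.6, and miR-125b-5p over miR-125b-2-3p between 3.23 and 3.94.

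The let-7 strands of the clusters were not among the chosen miRNAs and were tested. They share clusters with those miRNAs, and the tests were set with earlier results of these data known, so they are not independent of that choice. None of the 4 that passed the filter was called by edgeR, when 14.2% of all tested miRNAs were called in either direction. In edgeR 2 of the 4 had an unadjusted p under 0.05, as 26.9% of all tested miRNAs did. DESeq2, which called 7.45% of the miRNAs it tested higher, and limma-voom, at 8.15%, called 0 of the 4 as well. With so few strands, 0 calls cannot be told from these shares, and nothing is read from it. On chromosome 21, let-7c-5p had 558 and 622 CPM in CAG and 354 and 461 CPM in PGK cells, a log2 fold change of 0.53 (SE 0.20; edgeR adjusted p = 0.0992). Its other strand, let-7c-3p, had 10.3 and 10.7 CPM in CAG and 4.5 and 6.27 CPM in PGK cells (0.96, SE 0.30; edgeR adjusted p = 0.0591). On chromosome 19, let-7e-5p had 1553 and 1673 CPM in CAG and 1281 and 1329 CPM in PGK cells (0.31, SE 0.17; edgeR adjusted p = 0.258), and let-7e-3p had 23.5 and 23.0 CPM in CAG and 14.6 and 22.0 CPM in PGK cells (0.35, SE 0.27; edgeR adjusted p = 0.419). In each of the 4 strands both CAG libraries were above both PGK libraries, as in 29.8% of all tested miRNAs. The value of let-7e-3p was 0.07 without PGK replicate 1 and 0.66 without PGK replicate 2. Without CAG replicate 1, let-7c-5p was called higher (edgeR adjusted p = 0.0273), in the fit that called 7.32% of all tested miRNAs higher.

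let-7c-5p differs from the abundant let-7a-5p by the substitution A19G and let-7e-5p by U9G, and whether reads of let-7a-5p were counted under them was not tested. let-7a-5p, which has 3 hairpins on chromosomes 9, 11 and 22, had 6245 and 6317 CPM in CAG and 5267 and 6862 CPM in PGK cells, a log2 fold change of 0.05 (SE 0.17; edgeR adjusted p = 0.871). Within the chromosome 19 cluster there were 7.75 and 7.17 reads of miR-99b-5p for each read of let-7e-5p in CAG cells, and 7.33 and 7.32 in PGK cells. For each read of miR-125a-5p there were 7.62 and 9.04 reads of miR-99b-5p in CAG and 8.95 and 7.07 in PGK cells, a wider range, with overlapping groups. On chromosome 21, miR-99a-5p per let-7c-5p stood at 10.8 and 8.97 in CAG and 9.0 and 7.18 in PGK cells, with overlapping groups. Against let-7a-5p, let-7c-5p made up a larger part in CAG cells, where there were 11.2 and 10.2 reads of let-7a-5p for each of let-7c-5p, against 14.9 in both PGK libraries.

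miR-10, the relative of miR-99 and miR-100 encoded in the HOX clusters, was far more abundant. miR-10a-5p had 92380 and 84829 CPM in CAG and 75179 and 71061 CPM in PGK cells, and its log2 fold change of 0.28 (SE 0.13; edgeR adjusted p = 0.209) did not pass the test. Of the 4 strands of miR-10a and miR-10b, edgeR called 0, when it called 14.2% of all tested miRNAs in either direction. DESeq2 and limma-voom called 0 as well. In edgeR 2 of the 4 had an unadjusted p under 0.05, as 26.9% of all tested miRNAs did. Leaving out CAG replicate 2, in the fit that called 10.1% of all tested miRNAs higher, gave a call to both 5p strands. Leaving out CAG replicate 1, in the fit that called 7.32% higher, gave a call to miR-10b-3p. All 3 were higher in CAG cells.

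Outside the clusters, the 5 miRNAs whose levels over the 4 libraries were most like the sum of the 10 were miR-542-3p, miR-331-5p, miR-345-5p, miR-450b-5p and miR-98-5p, out of 209 with a mean of at least 100 CPM, with let-7a-5p and miR-10 set aside. Their centred log2 CPM differed from that of the sum by a root mean square of 0.030, 0.041, 0.045, 0.060 and 0.065. miR-542-3p, the closest, had 293 and 280 CPM in CAG and 210 and 210 CPM in PGK cells. Over 4 libraries this likeness is a description only.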

How the data were processed

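The authors deposited whole-number read counts per mature miRNA and per 7-base seed family, 1 column per library, from NEBNext small RNA libraries, per the labels' protocols. Of trimming, aligner, counting rule, annotation and build, nothing is given in the sources used here. Counts were fitted with edgeR 4.0.16 in R 4.3.3 (quasi-likelihood, robust; TMM; default filter, minimum count 10 and total 15), which kept 773 of 2656 miRNAs. The model held the group alone, fold changes are CAG minus PGK, and two-sided p-values had Benjamini-Hochberg adjustment across the 773. SEs are the log2 fold change over the square root of the F statistic. The script was tested on simulated data. Ratios and shares are of counts, those of single libraries with exact or Wilson 95% intervals. Locus levels are sums of CPM, without intervals. DESeq2 1.42.0, limma-voom (limma 3.58.1), other scalings and filters, a replicate block and leaving out each library were tried. Replicates differed far beyond counting noise (chi-square per degree of freedom 125 for CAG and 66.1 for PGK), so no column is a copy of another. That does not show separate cultures or separate RNA. The miRNAs, marker lists and tests were chosen with earlier results of these data known. The text names all 10 miRNAs, their cluster neighbours, let-7a-5p, miR-10 and the 5 miRNAs most alike in level; miR-4319, miR-106a-5p and miR-17-5p were added once their values were known. Python 3.11.15 was used for ratios and figures.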

Additional observations from a re-analysis of the deposited data

How the results depend on the processing

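Over the alternatives, the 8 tested miRNAs of the group kept a positive log2 fold change in every fit, but these fits share their libraries. The count called higher, 4, ran from 0 to 5 when a library was left out, and that of the let-7 neighbours, 0, from 0 to 1. Over all miRNAs, 63 were higher and 47 lower; leaving out a library gave 10 to 84 higher and 6 to 78 lower, the replicate block 40 higher and 23 lower, and the filter of 10 CPM in 2 libraries 39 higher. The cause was not tested. Under the replicate block miR-125b-2-3p lost its call, and no other call of the group or its let-7 neighbours changed; the labels do not say that replicate numbers pair libraries, and deviations of same-numbered libraries had a correlation of 0.037 across 436 miRNAs. The log2 fold change of let-7a-5p, 0.05, was -0.15 without PGK replicate 1 and 0.25 without PGK replicate 2. Depth limits miR-99a-3p and miR-125b-1-3p, with 32 reads and 1 read in all.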
